A study of Mus with 18 samples.

Results

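The genes described here encode 8 proteins of the dystrophin complex and the muscle cell membrane: dystrophin (Dmd), utrophin (Utrn), dystroglycan (Dag1), α-, β- and δ-sarcoglycan (Sgca, Sgcb and Sgcd), dysferlin (Dysf) and caveolin-3 (Cav3). They were chosen by gene symbol for the roles of their proteins, though with earlier results of these data known. All 8 were found among the 21401 genes of each expression table. Gene expression was measured by RNA sequencing in 18 mouse libraries, 9 labelled C2C12, a mouse myoblast line, and 9 from the gastrocnemius, a calf muscle. The question was how lipopolysaccharide (LPS), a bacterial cell wall component that provokes inflammation, and moringa isothiocyanate-1 (MIC-1), a compound from moringa seeds, alter transcription. In the C2C12 experiment, 3 libraries were labelled control, 3 LPS (1 μg/mL) and 3 LPS-MIC-1 (LPS with 10 μM MIC-1), with a 24 h exposure. The MIC-1 dose is the one in the labels, and the study's text also names a lower one for these libraries. In the muscle experiment, male C57BL/6 wild-type mice gave 3 control libraries (vehicle only), 3 libraries taken 16 h after intraperitoneal LPS at 10 mg/kg, and 3 libraries from mice that also took MIC-1 by mouth at 80 mg/kg on each of the 3 days before LPS. Levels are FPKM, fragments counted per length of transcript and per number of mapped fragments, and are given as mean ± SD (n = 3).

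Dystrophin is a long rod-shaped protein that ties the actin skeleton of the muscle fibre to dystroglycan, which crosses the membrane and holds laminin in the matrix outside. The sarcoglycans stabilise this link, and loss of dystrophin or of a sarcoglycan causes muscular dystrophy because the membrane tears during contraction. Utrophin is the close relative of dystrophin that sits at the nerve-muscle junction and is made by many other cell types, dysferlin helps to reseal torn membrane, and caveolin-3 builds the caveolae, small membrane pits, of muscle fibres.

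The labels of the C2C12 experiment did not hold for 6 of its 9 libraries. The summed level of 12 myoblast markers was 1.46 to 2.05 FPKM in the libraries labelled control and 4.06 to 6.21 FPKM in those labelled LPS, against 1088 to 1343 FPKM in those labelled LPS-MIC-1. Myf5, Msc, Chrng and Pax7 were at 0 in all 6 of the former libraries. Macrophage markers ran the other way, with a sum of 7482 to 10070 FPKM in the libraries labelled control or LPS and of 293, 89.1 and 103 FPKM in LPS-MIC-1 replicates 1, 2 and 3. Treatment and cell content therefore cannot be told apart in any C2C12 comparison with the LPS-MIC-1 libraries, and those comparisons are given after the muscle. In the muscle the fibre markers were high in every library. LPS-MIC-1 replicate 3 stood apart with a macrophage marker sum of 187.3 FPKM, against 34.3 and 32.5 FPKM in the other replicates of its group. These sums all lay above those of control mice (16.5 to 19.9 FPKM) and of LPS mice (21.7 to 24.9 FPKM). Of 7 tested macrophage markers, 3 rose and 0 fell in muscle LPS-MIC-1 against LPS. Absolute depth is unknown from FPKM. Relative depth, read from the smallest values, was 0.983 to 1.12 of control replicate 1 in muscle and fell to 0.467 in C2C12 LPS-MIC-1 replicate 3. An exact 0 may be a failed estimate, since Ywhaz, used by every cell, was listed at 0 in 2 muscle libraries.

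**Figure D1:**
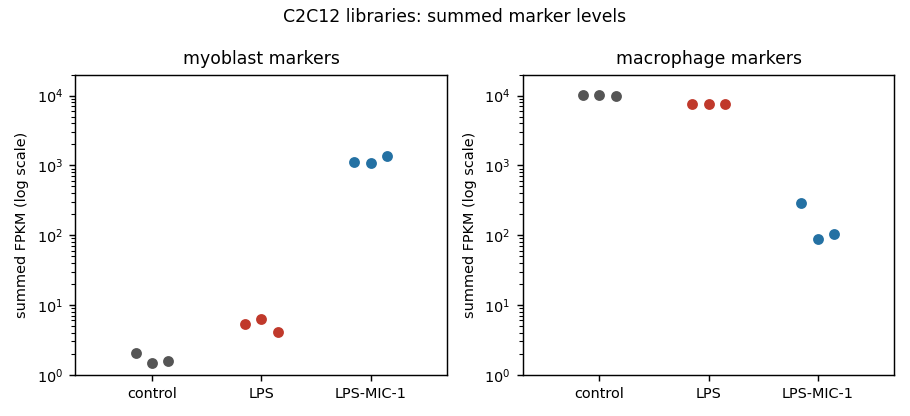
Summed FPKM (log scale) of the myoblast and macrophage marker lists in each C2C12 library, 1 point per library. The libraries labelled control and LPS lie at 1.46 to 6.21 FPKM for myoblast markers and 7482 to 10070 FPKM for macrophage markers, and the LPS-MIC-1 libraries at 1088 to 1343 and 89.1 to 293 FPKM.

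In gastrocnemius, LPS alone changed none of the 7 genes that could be tested, whereas Cav3, Sgcd and Sgcb were lower after LPS-MIC-1 than after LPS, and Cav3, Sgcb and Utrn were lower after LPS-MIC-1 than in control mice. All of these falls were below 1 on the log2 scale. The mean of Dmd was lowest and that of Utrn highest in control mice, but Dmd was too low to enter the test. Dag1 and Dysf varied widely between mice of 1 group and did not pass in any comparison.

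The members spanned a wide range of levels in the muscle. In control mice Sgca stood highest at 218.1 ± 5.05 FPKM, followed by Cav3 at 84.5 ± 5.15, Sgcb at 28.2 ± 2.10, Sgcd at 5.86 ± 0.237, Dysf at 3.24 ± 2.88, Utrn at 1.52 ± 0.114, Dag1 at 0.542 ± 0.472 and Dmd at 0.295 ± 0.101 FPKM. Neighbours in this order overlapped in the ranges of their 3 libraries for Sgcd and Dysf, for Dysf and Utrn, and for Dag1 and Dmd, and the other neighbours did not. FPKM is per length of transcript, but whether these levels can be compared between genes was not otherwise tested. In these values the 3 sarcoglycans differed widely, although their proteins assemble into 1 complex.

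**Figure D2:**
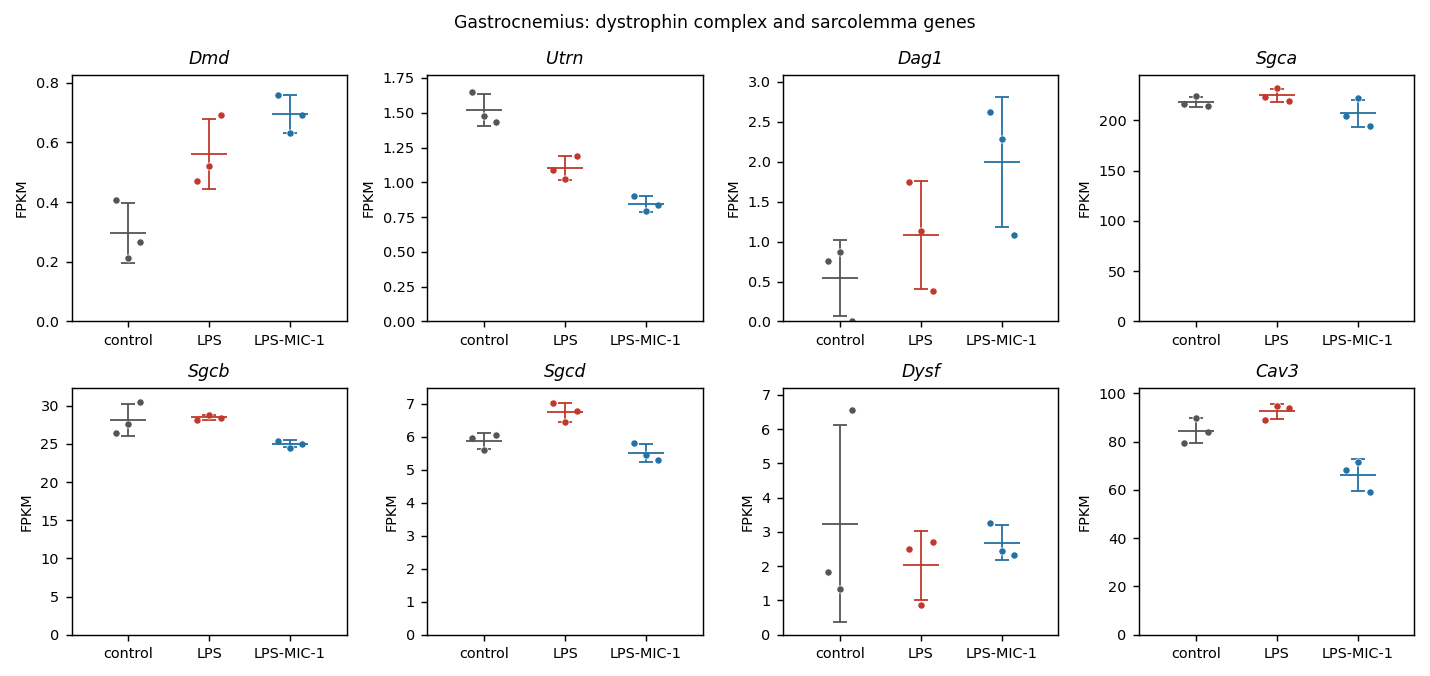
FPKM of the 8 genes in each gastrocnemius library (points, 1 per mouse) with the mean and SD of each group (n = 3). Utrn falls from 1.52 to 0.844 FPKM across control, LPS and LPS-MIC-1 with no overlap between groups, and the Cav3 values after LPS-MIC-1 (59.0 to 71.7 FPKM) lie below those of both other groups.

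Dystrophin and utrophin were measured at low levels. Dmd read 0.408, 0.214 and 0.265 FPKM in the control mice, 0.471, 0.521 and 0.693 after LPS, and 0.760, 0.632 and 0.691 after LPS-MIC-1. Every LPS and LPS-MIC-1 value lay above every control value, and the LPS and LPS-MIC-1 values overlapped. The mean of Dmd over the 9 libraries was below the 1 FPKM needed to enter the test, so that 7 of the 8 genes were tested. With that filter removed, the log2 fold change of Dmd was 1.03 for LPS-MIC-1 against control (limma adjusted p = 0.00893), 0.76 for LPS against control (adjusted p = 0.106) and 0.28 for LPS-MIC-1 against LPS (adjusted p = 0.418).

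Utrn read 1.65, 1.48 and 1.43 FPKM in control mice, 1.09, 1.03 and 1.19 after LPS, and 0.904, 0.794 and 0.834 after LPS-MIC-1. The 3 groups did not overlap with one another. Utrn fell by 0.78 on the log2 scale in LPS-MIC-1 against control (SE 0.159, adjusted p = 0.00307). The differences of -0.43 for LPS against control (adjusted p = 0.111) and -0.35 for LPS-MIC-1 against LPS (adjusted p = 0.0934) did not pass, although both did when the variance was modelled without a trend on the mean (adjusted p = 0.0123 and 0.00681). Utrophin is also abundant in the endothelium, the lining of blood vessels. The summed level of the endothelial markers was 85.2 to 91.0 FPKM in control mice, 54.4 to 56.7 after LPS and 83.3 to 92.5 after LPS-MIC-1. Of the 6 tested endothelial markers, 0 rose and 5 fell in LPS against control, 3 rose and 1 fell in LPS-MIC-1 against LPS, and 1 rose and 3 fell in LPS-MIC-1 against control. The adhesion protein gene Cdh5 had mean levels of 31.2, 18.9 and 22 FPKM in control, LPS and LPS-MIC-1 mice, and Cldn5, of the tight junction, 10.2, 5.64 and 31.5 FPKM. Their part in the Utrn result was not tested, and in bulk muscle fewer cells of a type and less RNA per cell cannot be told apart.

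The ratio of Utrn to Dmd in each mouse restates the values above and does not tell which of the pair moved. With 0.1 FPKM added to both genes it was 3.44, 5.03 and 4.19 in control mice (4.22 ± 0.796), 2.09, 1.82 and 1.63 after LPS (1.84 ± 0.230), and 1.17, 1.22 and 1.18 after LPS-MIC-1 (1.19 ± 0.0276). No group overlapped with another. The log2 ratio differed by -1.19 between LPS and control, by -0.63 between LPS-MIC-1 and LPS, and by -1.81 between LPS-MIC-1 and control. Each gave p = 0.1 in a two-sided exact permutation test, the smallest value that 20 arrangements of 3 against 3 mice allow, or 0.3 after Benjamini-Hochberg adjustment over the 9 ratio comparisons made in muscle. With 1 FPKM added, the differences were -0.53, -0.31 and -0.84.

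Dag1, whose single transcript gives both the outer and the membrane-spanning dystroglycan, read 0.760, 0.865 and 0 FPKM in control mice, 1.74, 1.13 and 0.381 after LPS, and 2.62, 2.28 and 1.08 after LPS-MIC-1. The LPS-MIC-1 values lay above all control values, but the LPS group overlapped with both others. The log2 fold change was 1.24 for LPS against control (SE 0.903, adjusted p = 0.409), 0.94 for LPS-MIC-1 against LPS (adjusted p = 0.408) and 2.17 for LPS-MIC-1 against control (adjusted p = 0.0688). The last value passed when control replicate 2 was left out (2.75, adjusted p = 0.0458) and with 1 FPKM as pseudocount (0.97, adjusted p = 0.0367). It did not pass when control replicate 3, the library listed at 0, was left out. Both fold changes against control rest in part on that 0, which may be a failed estimate. The spread of Dag1 between mice of a group was 1.27 on the log2 scale, wider than in 95.9% of the tested genes.

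The sarcoglycans were among the steadier genes, each with a spread of 0.06 on the log2 scale between mice of a group against a median of 0.13 over all tested genes. Sgca read 216.1, 223.8 and 214.4 FPKM in control mice, 223.5, 232.0 and 219.0 after LPS, and 204.4, 221.8 and 194.9 after LPS-MIC-1. All 3 groups overlapped, and the log2 fold changes were 0.04, -0.12 and -0.08 for LPS against control, LPS-MIC-1 against LPS and LPS-MIC-1 against control (adjusted p = 0.595, 0.0625 and 0.207). Leaving out LPS-MIC-1 replicate 2, the highest of its group, gave adjusted p = 0.00784 and 0.0262 for the comparisons of LPS-MIC-1 with LPS and with control.

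Sgcb, which forms the core of the sarcoglycan complex with Sgcd, read 26.4, 27.6 and 30.5 FPKM in control mice, 28.1, 28.8 and 28.4 after LPS, and 25.4, 24.5 and 25.0 after LPS-MIC-1. The LPS-MIC-1 values lay below all others. Sgcb fell by 0.19 on the log2 scale against LPS (SE 0.0535, adjusted p = 0.0163) and by 0.17 against control (adjusted p = 0.0248), while LPS and control differed by 0.02 (adjusted p = 0.853). Both falls were close to the threshold: against LPS, adjusted p was 0.0502 without LPS replicate 2 and 0.0503 without LPS-MIC-1 replicate 2, and against control it was 0.0547, 0.0705 and 0.0522 without control replicate 3, LPS-MIC-1 replicate 2 and LPS-MIC-1 replicate 3, and 0.0592 with only the 6 libraries compared in the fit. The total FPKM of a library was also lower after LPS-MIC-1, at 634197 to 672157. It was 715513 to 728858 after LPS and 722994 to 740810 in control mice. No setting scaled the libraries to these totals, and their part in these small falls was not tested.

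Sgcd read 5.95, 5.59 and 6.04 FPKM in control mice, 7.02, 6.43 and 6.77 after LPS, and 5.82, 5.44 and 5.28 after LPS-MIC-1. The LPS values lay above both other groups, which overlapped with each other. Sgcd fell by 0.29 on the log2 scale in LPS-MIC-1 against LPS (SE 0.0650, adjusted p = 0.00564). Its difference of 0.20 for LPS against control did not pass (adjusted p = 0.0780), nor did that of -0.09 for LPS-MIC-1 against control (adjusted p = 0.280). The ratios of Sgcb and Sgcd to Sgca were 0.111 to 0.143 and 0.0250 to 0.0318 over the 9 mice, and none of their 6 group differences gave an exact permutation p below 0.2 (0.36 adjusted over the same 9).

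Dysf read 1.84, 1.33 and 6.55 FPKM in control mice, 2.50, 0.880 and 2.71 after LPS, and 3.27, 2.44 and 2.33 after LPS-MIC-1. Control replicate 3 was the highest library and the groups overlapped throughout. The log2 fold changes were -0.45 for LPS against control, 0.51 for LPS-MIC-1 against LPS and 0.06 for LPS-MIC-1 against control (SE 0.600, adjusted p = 0.668, 0.495 and 0.941), and without control replicate 3 the first and last were 0.21 and 0.73. The spread within groups was 0.85 on the log2 scale, wider than in 94.2% of tested genes, so that only a large change of Dysf could have been detected.

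Cav3 read 79.6, 89.9 and 84.0 FPKM in control mice, 89.1, 94.6 and 94.0 after LPS, and 68.2, 71.7 and 59.0 after LPS-MIC-1. The LPS-MIC-1 values lay below all others, while control and LPS overlapped. Cav3 fell by 0.49 on the log2 scale against LPS (SE 0.0752, adjusted p = 0.000691) and by 0.35 against control (adjusted p = 0.00385), and LPS against control gave 0.13 (adjusted p = 0.285). Both falls passed under every setting tried. Without LPS-MIC-1 replicate 3, the library with the highest macrophage marker sum, the log2 fold changes were -0.40 and -0.27. The other replicates of that group also had higher macrophage sums than any control or LPS mouse. The summed fibre markers, led by Acta1 and Ckm, which encode skeletal actin and muscle creatine kinase, were 203200 to 207100 FPKM after LPS and 162400 to 176500 FPKM after LPS-MIC-1, with 2 of 12 markers higher and 6 lower at adjusted p under 0.05. The median marker went the other way, from 11620 to 11790 FPKM per library after LPS to 13420 to 14230 FPKM after LPS-MIC-1. The part of these markers, or of the lower library totals given beside Sgcb, in the lower Cav3, Sgcb and Sgcd was not tested.

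**Figure D3:**
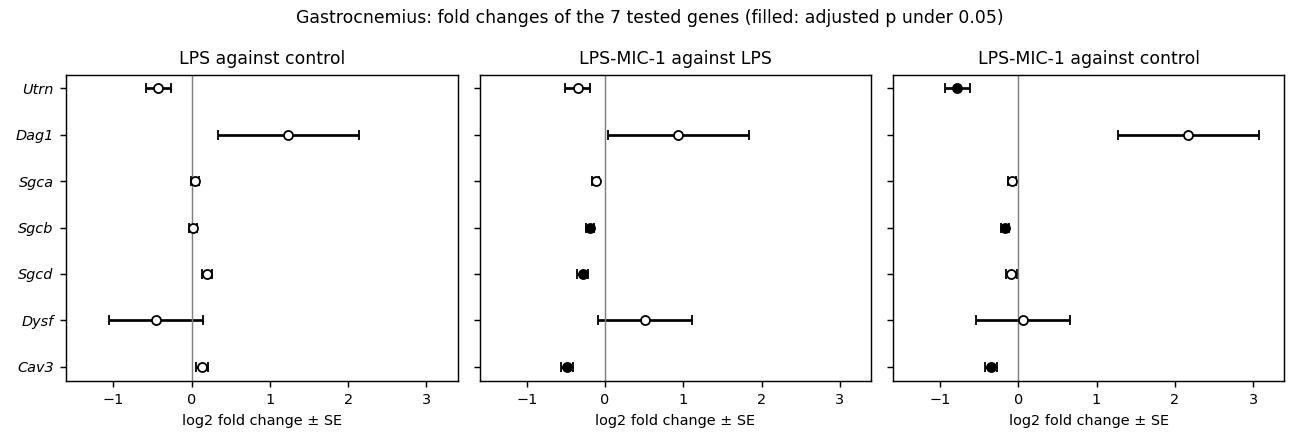
Log2 fold change ± SE of the 7 tested genes in each muscle comparison, with filled points where adjusted p was under 0.05. No point is filled for LPS against control. Cav3, Sgcb and Sgcd are filled for LPS-MIC-1 against LPS, and Cav3, Sgcb and Utrn for LPS-MIC-1 against control.

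A gene was counted as called in muscle at an absolute log2 fold change over 1 with adjusted p under 0.05. For LPS against control, 0 of the 7 members were called by limma (1.25% of all 9475 tested genes were), and 0 changed at adjusted p under 0.05 whatever the fold (8.25% of all genes rose and 7.48% fell). Before adjustment, 2 of the 7, Sgcd and Utrn, were under 0.05 in limma, as were 29.6% of all tested genes. For LPS-MIC-1 against LPS, 0 were called (15.1% of all), 0 rose (28.3%) and 3 fell (28.2%). Against control the counts were again 0 called (15.5%), 0 rising (30.0%) and 3 falling (28.5%). With 7 genes, 3 that fell are not far from the share of all genes that fell, and no count sets the members apart. The comparisons share groups, so they do not support each other.

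Among the other partners of the complex, Dtna and Sgce moved in opposite directions. Both, like Trim72, Capn3, Cav2, Cavin1, Cavin4, Ehd2 and Pacsin3 further on, were chosen after their values were seen. Dtna, the dystrobrevin that binds dystrophin and the syntrophins, rose by 0.76 in LPS-MIC-1 against LPS (adjusted p = 0.000647), from 6.36 to 10.8 FPKM. Sgce, a sarcoglycan made by many cell types, fell by 0.86 on the log2 scale in that comparison, from 4.50 to 2.44 FPKM (adjusted p = 0.000116). Neither passed in LPS against control (adjusted p = 0.302 and 0.856). Of 3 tested genes in the syntrophin and dystrobrevin list, 2 rose and 0 fell in LPS-MIC-1 against LPS. Of 3 tested genes among the other sarcoglycans and sarcospan, 0 rose and 2 fell. Over all tested genes 28.3% rose and 28.2% fell, and lists of 3 genes are too short to set against these shares.

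The counts of the lists below are read against the shares of all tested genes, 28.3% rising and 28.2% falling in LPS-MIC-1 against LPS and 8.25% and 7.48% in LPS against control, and several lie near them. Markers of other cell types moved in the same libraries: in LPS-MIC-1 against LPS 1 of 7 fibroblast markers rose and 5 fell (median log2 fold change -0.65), and from LPS to LPS-MIC-1 the summed levels went from 6.36 to 8.20 up to 22.3 to 24.9 FPKM for Schwann cell, from 1.58 to 1.84 up to 9.24 to 16.0 FPKM for neutrophil and from 6.07 to 6.43 up to 17.9 to 19.8 FPKM for epithelial markers. The macrophage marker sum was also higher after LPS-MIC-1 than after LPS, as given above. The part of these cell types in the list genes was not tested. Of the laminins and other ligands of dystroglycan, 2 of 9 rose and 3 fell in LPS-MIC-1 against LPS, and 1 rose and 4 fell in LPS against control. Of 15 tested genes that glycosylate dystroglycan so that it can bind laminin, 1 rose and 4 fell in LPS-MIC-1 against LPS, and 0 rose and 1 fell after LPS alone. B3galnt2, which adds a sugar of the laminin-binding chain, fell by 1.88 on the log2 scale, from 34.9 to 9.40 FPKM (adjusted p = 9.42e-08), and its level in control mice was 36.9 FPKM. Of 11 tested partners of dysferlin in membrane repair, 4 rose and 3 fell in LPS-MIC-1 against LPS, with a median of -0.06, and 2 rose and 0 fell after LPS alone. Ahnak, a giant scaffold protein that binds dysferlin, rose by 1.24 (9.50 to 22.5 FPKM, adjusted p = 1.37e-05), and Anxa1, an annexin that gathers at torn membrane, rose by 1.01 (4.0 to 8.14 FPKM, adjusted p = 0.000186). Trim72, which starts the repair patch, rose by 0.72 (62.2 to 102.9 FPKM), whereas Capn3, a muscle protease, fell by 0.51 on the log2 scale (67.1 to 47.0 FPKM).

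The other proteins of caveolae, the setting in which Cav3 works, were mostly lower. In LPS against control, 0 of 8 rose and 6 fell, the median log2 fold change being -0.58, and 0.01 over all genes. In LPS-MIC-1 against LPS, 1 rose and 5 fell, with a median of -0.47, and against control 1 rose and 6 fell, with a median of -1.11. Cav1, the caveolin of endothelium, fat and other non-muscle cells, had mean levels of 74.0, 45.3 and 21.1 FPKM in control, LPS and LPS-MIC-1 mice and fell by 1.10 on the log2 scale in LPS-MIC-1 against LPS (adjusted p = 2.12e-06). Cavin2, a coat protein of caveolae, went from 16.0 to 12.4 to 1.57 FPKM and fell by 2.91 in the same comparison (adjusted p = 4.06e-08). Cav2, Cavin1 and Ehd2, which pair with Cav1, coat caveolae and hold their necks, also fell after LPS and again with MIC-1. Cavin4, the cavin of muscle fibres, rose by 0.29 in LPS-MIC-1 against LPS (adjusted p = 0.00295), from 42.0 to 51.3 FPKM, whereas Cav3 fell. Pacsin3, a membrane-bending protein of muscle, did not pass in any comparison and had mean levels of 40.2, 44.7 and 38.0 FPKM. Cav3, like Pacsin3, did not share the decrease of most of the list after LPS alone, and the difference of Cav3 from the list was not tested. The endothelial marker sum also fell after LPS. Between control and LPS-MIC-1 the sum did not fall, but 3 of its 6 tested markers fell and 1 rose, as given beside Utrn. The summed smooth muscle markers were 81.9 to 87.3, 66.5 to 70.8 and 38.6 to 41.8 FPKM in the 3 groups. The part of either cell type in these levels was not tested.

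**Figure D4:**
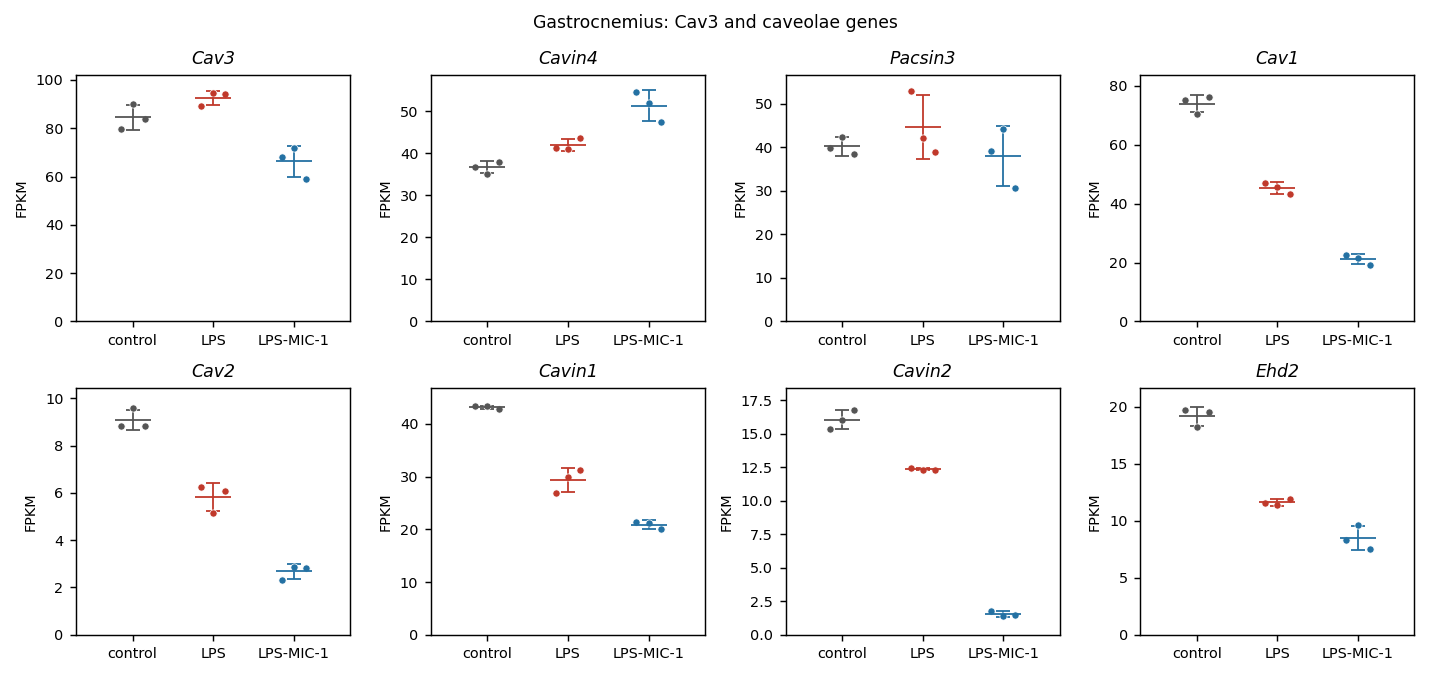
FPKM of Cav3 and 7 other genes of caveolae in each gastrocnemius library (points) with group mean and SD (n = 3). Cav1, Cav2, Cavin1, Cavin2 and Ehd2 step down from control to LPS to LPS-MIC-1, whereas Cavin4 is highest and Cav3 lowest after LPS-MIC-1.

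Of 18 tested genes of the costamere and the membrane skeleton, the structures that carry force from the myofibrils to the membrane, 8 rose and 5 fell in LPS-MIC-1 against LPS, and 5 rose and 3 fell after LPS alone. Flnc, the muscle filamin that binds sarcoglycans, rose by 2.08 (8.30 to 35.3 FPKM, adjusted p = 0.000143). Actg1, the cytoplasmic actin to which dystrophin binds, rose by 1.47 (30.4 to 82.8 FPKM, adjusted p = 0.0001).

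The genes whose muscle profile was most like each member were found by Pearson's r of log2(FPKM + 0.1) over the 9 libraries, among 9474 other tested genes. These are descriptions without a test, and the points share the 3 treatment groups. Utrn was closest to Vmn1r58 (r = 0.988), the vascular receptor gene Flt1 (0.986) and the endothelial gene Egfl7 (0.984), and 2 of these 3 stayed on the FPKM scale. Cav3 was closest to Snapc2 (0.993), Isoc2b (0.982) and Amhr2 (0.982), and 1 of 3 stayed. Sgca was closest to Pkig (0.935), Lsm1 (0.933) and Atp5g2 (0.933), with 2 of 3 staying, Sgcb to 1810035L17Rik (0.978), Snapc5 (0.959) and Cox7a1 (0.949), and Sgcd to Dennd1b (0.973), Dst (0.955) and Bmpr2 (0.952), with 1 of 3 staying for each of the last pair. For Dag1 (Clint1 0.951, Tmem161a 0.949, Tmem57 0.947) and Dysf (Agpat5 0.949, Nsa2 0.880, Tgs1 0.879), 0 of 3 stayed. No member was among the 3 closest genes of another member.

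In the libraries labelled C2C12, Sgca, Sgcd and Cav3 were found almost only in those labelled LPS-MIC-1, which carried the myoblast markers, and Sgcb was highest there. Utrn was higher in the libraries labelled LPS than in those labelled control, and Dag1 was lowest in those labelled LPS-MIC-1. The order of levels in the LPS-MIC-1 libraries was Sgcb (12.9 ± 0.414 FPKM) and Sgca (12.8 ± 0.478), whose values overlapped, then Utrn (5.43 ± 0.693), Cav3 (2.67 ± 0.682), Sgcd (1.76 ± 0.517), Dag1 (0.830 ± 0.756) and Dysf (0.539), with overlap between each pair of neighbours from Cav3 down. Nothing in the labels says that the replicates were separate cultures, so the p-values of this experiment measure only the spread between these libraries.

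Dmd was listed at 0 in all 9 C2C12 libraries, the 3 with myoblast markers included. Utrn read 2.47, 2.52 and 2.25 FPKM in the libraries labelled control, 5.95, 5.92 and 5.99 in those labelled LPS and 5.99, 5.63 and 4.65 in those labelled LPS-MIC-1. Control lay below both other groups, which overlapped. Utrn rose by 1.27 on the log2 scale in LPS against control (SE 0.112, adjusted p = 2.36e-05) and by 1.13 in LPS-MIC-1 against control (adjusted p = 2.40e-05, and by 0.91 with a pseudocount of 1, under the fold needed for a call), and differed by -0.14 between LPS-MIC-1 and LPS (adjusted p = 0.267). The rise after LPS was between libraries that both carried macrophage markers, Lyz2 at 4598 to 4761 FPKM and 1786 to 1866 FPKM and Cd14 at 700 to 709.2 FPKM and 2013 to 2078 FPKM in control and LPS.

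Dag1 read 6.86, 7.18 and 7.37 FPKM in the libraries labelled control, 6.19, 4.53 and 7.69 in those labelled LPS and 1.48, 0 and 1.01 in those labelled LPS-MIC-1. The last group lay below both others. The log2 fold change was -3.45 against LPS (SE 0.913, adjusted p = 0.00744) and -3.69 against control (adjusted p = 0.00558), under 0.05 but not under the 0.001 used for calls in this experiment. With a pseudocount of 1 both were called (-2.04 and -2.25, adjusted p = 0.000271 and 0.000158). Without LPS-MIC-1 replicate 2, the library listed at 0, it was -2.20 and -2.45 and both were called (adjusted p = 0.0001 and 6.44e-05).

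Sgca was at 0 in all but 1 of the 6 libraries labelled control or LPS, where it read 0.0383 FPKM, and at 12.3, 13.3 and 12.9 FPKM in those labelled LPS-MIC-1 (adjusted p = 7.56e-09 against LPS and 5.87e-09 against control). It entered the test only through that group and so had to differ. Sgcb, which is made outside muscle too, read 2.06, 2.13 and 1.94 FPKM in control, 2.58, 2.35 and 2.01 in LPS and 12.99, 12.4 and 13.2 in LPS-MIC-1 libraries. Its LPS-MIC-1 values lay far above the rest, with log2 fold changes of 2.43 against LPS (SE 0.110, adjusted p = 1.70e-07) and 2.60 against control (adjusted p = 1.28e-07), and LPS against control gave 0.17 (adjusted p = 0.224). Sgcb and Sgca stood at a ratio of 1.00 ± 0.0614 in the LPS-MIC-1 libraries, beside 0.125, 0.111 and 0.129 in the LPS-MIC-1 muscles. The tables were normalised apart, and this difference was not tested.

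Sgcd, Dysf and Cav3 had means under 1 FPKM and were not tested, which left 4 of the 8 members. Sgcd read at most 0.0197 FPKM in the 6 libraries labelled control or LPS and 1.97, 1.17 and 2.14 in LPS-MIC-1, and Cav3 read 0 in all 6 and 3.32, 2.74 and 1.96 FPKM in LPS-MIC-1. With the filter relaxed to a value above 0 in at least 3 libraries, both entered only through LPS-MIC-1 and so had to differ. Dysf read at most 0.0799 FPKM in the 6 libraries and 0, 0.391 and 1.23 FPKM in LPS-MIC-1, which overlapped with them.

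**Figure D5:**
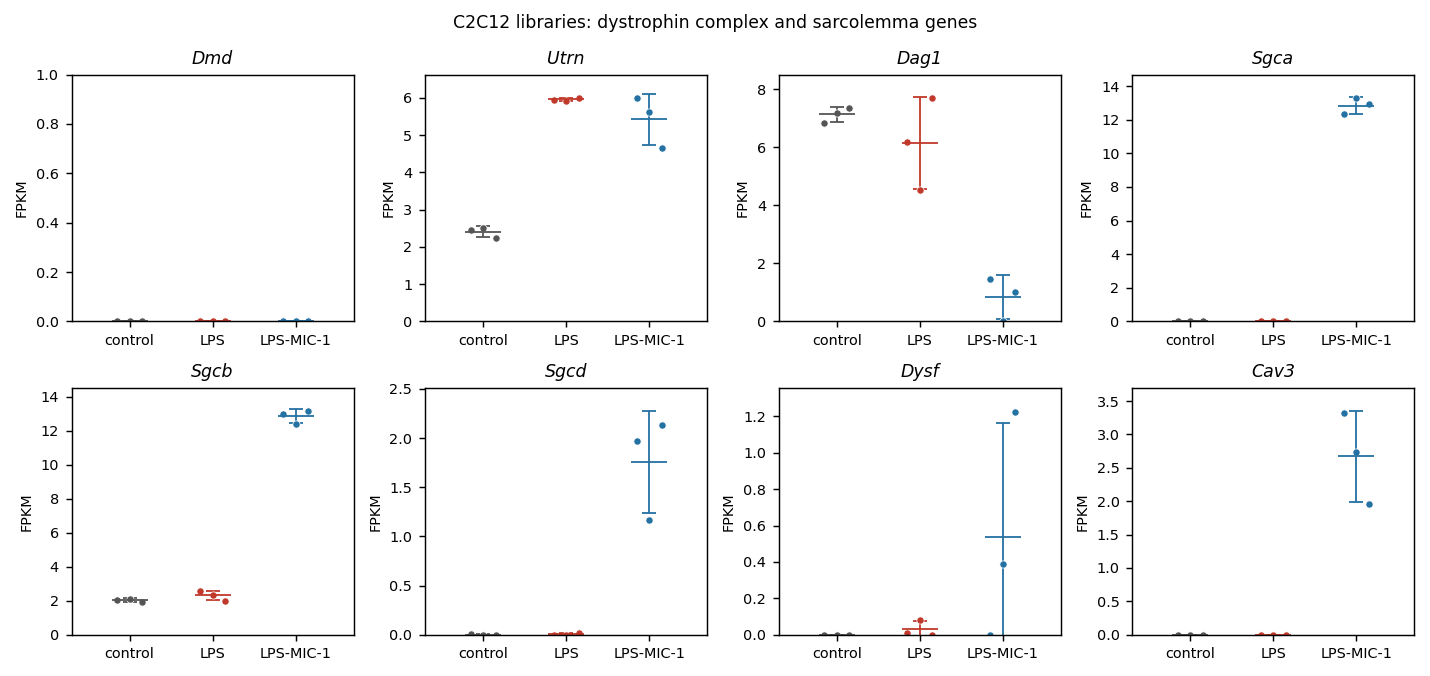
FPKM of the 8 genes in each library labelled C2C12 (points) with group mean and SD (n = 3). Sgca, Sgcd and Cav3 lie at or near 0 outside the LPS-MIC-1 libraries, Sgcb rises from about 2.31 to 12.9 FPKM between LPS and LPS-MIC-1, and Dmd is at 0 throughout.

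A gene was called in C2C12 at an absolute log2 fold change over 1 with adjusted p under 0.001. For LPS against control 1 of the 4 tested members was called (Utrn, higher; 20.9% of all 10877 tested genes were called), and Sgca, which had to differ, is left out of the counts that follow. Of the other 3 tested members, 1 was called in LPS-MIC-1 against LPS (Sgcb, higher; 49.9% of all) and 2 in LPS-MIC-1 against control (Utrn and Sgcb, higher; 43.3% of all). These few genes stand against large shares of all genes and show nothing particular to the members.

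Counts in the wider lists are limited in the same way as Sgca. Of the tested genes, 6 of 8 in the caveolae list, 5 of 8 matrix ligands, 5 of 17 costamere genes, 2 of 16 glycosylation genes and 1 of 11 repair genes had means of at most 1 FPKM in both the control and the LPS libraries, so that they entered only through LPS-MIC-1 and had to differ. In LPS-MIC-1 against LPS, 8, 6, 13, 5 and 8 genes of these lists, in that order and with those genes among them, were called higher and 0, 1, 0, 0 and 2 lower, against 24.3% and 25.6% of all genes, and 0 of 3 tested genes of the syntrophin list were called higher and 1 lower. Cavin1, the main coat protein of caveolae, had means of 0.240 and 234.7 FPKM, the small leucine-rich matrix protein Bgn 0.440 and 470.8 FPKM, the muscle intermediate filament Des 0.498 and 397.7 FPKM, and Sgce 0 and 26.5 FPKM in LPS and LPS-MIC-1. Sgce, the only tested gene among the other sarcoglycan subunits, also entered only through LPS-MIC-1, as did 903 of all 10877 tested genes. Sntb2, a syntrophin made outside muscle, was called lower (25.0 to 3.29 FPKM, log2 fold change -2.90). The myoblast and macrophage marker sums differed between the same libraries, and treatment and cell content cannot be told apart here. In LPS against control, 0 to 2 genes of each list were called in either direction, against 10.9% of all genes higher and 10.0% lower. Both groups held a trace of the myoblast markers, which was higher in LPS, as given above. Among those called higher were Sntb2, Lamc1, Agrn, Syt7, Ehd2 and Sync, with log2 fold changes of 1.73, 1.67, 1.44, 4.95, 2.32 and 1.25, and called lower were B4gat1, Myof and Tln2, at -1.15, -1.20 and -1.83. Sync was not called with a pseudocount of 1 (0.23, adjusted p = 0.0516) or with quantile scaling (0.56, adjusted p = 0.0645).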

How the data were processed

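The authors estimated transcript abundances with kallisto, used tximport to summarise them per gene and deposited FPKM values, 1 column per library. The submitters' processing notes name mm9 as build, and absolute depth is not known. The authors' own comparisons by DESeq2 (fold changes and p-values in 6 deposited tables) were not used, nor were 9 further columns of per-sample values. Each experiment was fitted apart with limma 3.58.1 (R 4.3.3) on log2(FPKM + 0.1), so that a fold change understates the change of low genes. All 9 libraries and 3 groups entered each fit, with eBayes and a trend on the mean, after a filter of mean FPKM over 1. Benjamini-Hochberg adjustment covered all tested genes, 10877 in C2C12 and 9475 in muscle. The scripts were tested on simulated data. The members and lists were chosen with earlier results of these data known. Named genes were the members, up to 2 called genes with the largest fold change per list in LPS-MIC-1 against LPS and in LPS against control, the 2 highest genes per marker list, and the 3 genes most like each member. Others are named as chosen after their values were seen. Alternatives were pseudocounts of 0.01 and 1, no filter or a mean over 5, median-ratio and quantile scaling, other variance models, only the 6 libraries compared, the replicate number as a block, and each library left out. The setting named no filter still needed a value above 0 in at least 3 libraries. Genome coordinates, promoter motifs and protein sequences were not analysed here. Some genes of the lists are not reported here. Figures were drawn with matplotlib 3.10.9.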

Additional observations from a re-analysis of the deposited data

Results flagged for a closer look

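Several genes differed in opposite directions between the experiments, with every library of 1 group above every library of the other in one experiment and below in the other. Such opposition was common: it was seen in 14.0%, 31.8% and 31.5% of the 9475 genes with a mean over 1 FPKM in muscle (LPS against control, LPS-MIC-1 against LPS, LPS-MIC-1 against control), and in 1, 3 and 4 of the 8 members, so these counts do not set the members apart. The values are differences of mean FPKM, the difference between the experiments was not tested, and the C2C12 libraries compared with LPS-MIC-1 differed in cell content. For LPS against control, Utrn differed by 3.55 FPKM in C2C12 and by -0.415 in muscle. For LPS-MIC-1 against LPS, Sgcb differed by 10.6 FPKM in C2C12 and -3.49 in muscle, Sgcd by 1.75 and -1.23, and Cav3 by 2.67 and -26.3. For LPS-MIC-1 against control, Utrn differed by 3.02 FPKM in C2C12 and -0.674 in muscle, Dag1 by -6.30 and 1.45, Sgcb by 10.8 and -3.17, and Cav3 by 2.67 and -18.2.

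Among the named genes of the lists, the same opposition was seen for LPS against control in Agrn (10.5 FPKM in C2C12 and -0.693 in muscle), Syt7 (5.77 and -0.201) and Ehd2 (18.0 and -7.55). For LPS-MIC-1 against LPS it was seen in Sgce (26.5 and -2.07), Bgn (470.4 and -6.58), Cavin1 (234.5 and -8.44), Cavin2 (7.34 and -10.8), Cav1 (58.8 and -24.2) and Cryab (107.1 and -103.8). With 3 libraries a group, single outlying libraries were not searched for.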

How the results depend on the processing

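With adjusted p under 0.05 at any fold, 6872, 9207 and 8840 genes were called in C2C12 and 1491, 5356 and 5544 in muscle (LPS against control, LPS-MIC-1 against LPS, LPS-MIC-1 against control), with 3 members in each of the last pair in muscle. In muscle, a mean FPKM over 5 gave 57, 656 and 677 calls against 118, 1431 and 1464, no filter gave 2158 and 2240 for the comparisons with LPS-MIC-1, and a pseudocount of 1 gave 71 for LPS against control. Calls among the members in C2C12 were 0, 1 and 1 with a mean over 5, which only Sgcb reached, through the LPS-MIC-1 libraries. With no filter, 4 and 5 of 7 tested members were called in the comparisons with LPS-MIC-1. Sgca, Sgcd and Cav3 were among these and had to differ. Of all 15296 genes in that setting, 3726 were called higher and 2996 lower against LPS, and 3449 and 2583 against control. In muscle LPS-MIC-1 against control, 1 member was called with no filter (Dmd), and 0 to 1 with a library left out (Dag1, without control replicate 2).

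Same-numbered libraries correlated in their deviations by -0.0757 to 0.0823, so the numbers were not taken to pair them. With the replicate block, 115, 1431 and 1463 genes were called in muscle and 2056, 5227 and 4472 in C2C12, and 1 member was called in muscle LPS-MIC-1 against control (Dag1, adjusted p = 0.00884).

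In muscle, 1 member changed after LPS without a variance trend (Utrn). Quantile scaling moved the median of all genes to -0.12 and -0.10 in LPS-MIC-1 against LPS and control. Of the 7 tested members 5 then fell in each, as did 3405 and 3414 of all 9475 tested genes. This scaling gave 781 genes called higher and 667 lower in LPS-MIC-1 against LPS, against 916 and 515. The cause of these shifts was not tested.

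Directions turned only for differences that had not passed. Quantile scaling gave 0.11 for Utrn in C2C12 LPS-MIC-1 against LPS, -0.022 for Sgcb in muscle LPS against control and -0.026 for Dysf in muscle LPS-MIC-1 against control, the last also -0.009 with a pseudocount of 1. With a library left out, Sgcb ranged from -0.026 to 0.077 and Dysf from -0.90 to 0.21 in muscle LPS against control, and Dysf from -0.38 to 0.73 in LPS-MIC-1 against control. The log2 ratio of Sgcb to Sgca ranged from -0.063 to 0.046 in LPS against control, and that of Sgcd to Sgca from -0.063 to 0.048 in LPS-MIC-1 against control (0.001 with a pseudocount of 1). With 3 libraries a group, small differences of Dag1 and Dysf could not be detected. The alternative for promoter motifs was not run.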
